A study of Mus musculus with 4 samples.

Results

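The metallothionein genes Mt1, Mt2 and Mt3 were followed in fetal mouse brain after maternal food deprivation and maternal food restriction. They were taken by name: every probe other than controls whose gene name on the array is Mt1, Mt2 or Mt3. These are 3 of 28104 genes and 3 of 41174 probes, and 12 of the 43379 spots of each array, since the Mt1 probe is printed 10 times while those of Mt2 and Mt3 are printed once each.

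All RNA came from fetal brain of C57BL/6J mice, pooled from 5 fetuses per condition. In the food deprivation group (FD) the dams went without food overnight at gestation day 17. In the food restriction group (FR) they received 50% of the chow of controls from gestation day 10 to 17, and fetuses were delivered by section at gestation day 18, a day the design text gives for FR only. Control dams ate ad libitum. Each treated pool was hybridised against control RNA on a pair of 2-colour arrays with the dyes exchanged, the treated pool in Cy5 on array 1 and in Cy3 on array 2. Each condition is therefore 1 pool, the arrays of a pair carry identical RNA, and the SD given below is the spread between the dye orientations, with no test of any difference. Chance differences among pools and effects of diet cannot be told apart within these data. The labels do not state whether FD and FR had the same control pool, but the control RNAs were not alike. The mean log2 intensity of 9 skeletal muscle markers was 9.65 and 9.67 on arrays 1 and 2 in the control of FD, and 8.14 and 8.11 in the control of FR. That of 5 brown fat markers was 8.59 and 8.66 against 7.46 and 7.32. The control of FD, the reference of every FD ratio, also stood above both treated pools in these markers, where muscle read 7.77 and 7.84 in FD and 8.14 and 8.12 in FR, and brown fat 7.22 and 7.47 in FD and 7.36 and 7.26 in FR. In tissue RNA, fewer cells of a type and less RNA per cell cannot be told apart.

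Metallothioneins are small, cysteine-rich proteins that bind zinc and copper through their thiol groups. Mt1 and Mt2 are made in many tissues, with liver among the richest. Their transcription is induced by zinc and other metals through the zinc-sensing factor Mtf1, which binds metal response elements in their promoters, and also by glucocorticoids and inflammatory cytokines. Mt3 is found mainly in the brain, in neurons and glia, was first described as an inhibitor of neuronal outgrowth, and is not induced by metals in the manner of Mt1 and Mt2. The remaining family member, Mt4, belongs to stratified epithelia.

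The genes lie in 1 cluster on the plus strand of chromosome 8 in the order Mt4, Mt3, Mt2, Mt1. In GRCm38.p6, the assembly of the RefSeq tables used here, Mt3 spans chr8:94152607-94154148, Mt2 chr8:94172618-94173567 and Mt1 chr8:94178883-94180327. Mt2 and Mt1 are separated by 5315 bases and Mt3 and Mt2 by 18469 bases. All 3 members matched the RefSeq promoter table, which holds 250 bases before to 50 after a gene's start. The windows are shown because the metal response element is the sequence through which Mt1 and Mt2 are classically induced. Capitals mark each match to the core of that element, TGCACNC or TGCGCNC, on either strand, read 5′ to 3′ on the plus strand.
Mt1, chr8:94178839-94179138: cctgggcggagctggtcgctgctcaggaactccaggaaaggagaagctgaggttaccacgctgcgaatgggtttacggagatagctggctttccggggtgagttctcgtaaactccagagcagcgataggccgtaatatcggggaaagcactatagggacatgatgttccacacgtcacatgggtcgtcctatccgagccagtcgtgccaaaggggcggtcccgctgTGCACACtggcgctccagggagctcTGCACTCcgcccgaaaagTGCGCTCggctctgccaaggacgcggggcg
Mt2, chr8:94172368-94172667: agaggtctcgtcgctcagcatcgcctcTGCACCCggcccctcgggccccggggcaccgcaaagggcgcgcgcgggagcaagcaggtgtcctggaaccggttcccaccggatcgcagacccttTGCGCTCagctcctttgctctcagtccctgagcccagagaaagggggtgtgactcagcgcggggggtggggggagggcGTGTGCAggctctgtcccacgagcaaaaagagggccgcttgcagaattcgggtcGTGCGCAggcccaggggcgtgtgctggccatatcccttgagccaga
Mt3, chr8:94152357-94152656: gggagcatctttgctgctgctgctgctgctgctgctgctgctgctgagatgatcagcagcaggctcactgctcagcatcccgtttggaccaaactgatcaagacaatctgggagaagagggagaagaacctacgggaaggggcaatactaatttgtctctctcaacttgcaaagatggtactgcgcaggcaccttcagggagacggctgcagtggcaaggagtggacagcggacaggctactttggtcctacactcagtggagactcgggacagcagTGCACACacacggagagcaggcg

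The Mt2 window held 4 matches, the Mt1 window 3 and the Mt3 window 1. Of 32851 RefSeq promoters of the same length, 25.7% held at least 1 match, 1.97% at least 3 and 0.517% at least 4. The Mt1 matches begin at positions -23, 3 and 21 from the start used in the table, all on the plus strand, and that start lies inside the span annotated for the gene. Most of the Mt1 window therefore lies inside that span, whereas most of the Mt2 and Mt3 windows lies before theirs. The Mt2 matches begin at -223 and -128 on the plus strand and at -50 and 5 on the minus strand. The only Mt3 match begins at 28. The core of the antioxidant response element, TGACNNNGC, was found once in the Mt2 window and in neither other window, against 12.4% of all promoters with at least 1. The E-box CACGTG was in none of the 3 windows and in 7.15% of all promoters. These are matches of letters within these windows and not measured binding sites.

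The array reads Mt1 through a probe at chr8:96704011-96704070, Mt2 at chr8:96697371-96697430 and Mt3 at chr8:96677927-96677986, all on build mm9 as the array files give them. The files do not state the exon or untranslated region. The Mt1 probe is shown because it carries the cysteine codons that characterise the family, capitalised here as TGC and TGT in the reading frame that holds most of them, 6 of 19 codons.
Mt1 probe: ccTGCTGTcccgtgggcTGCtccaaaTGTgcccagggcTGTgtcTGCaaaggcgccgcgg

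The longest run of bases shared between the probes of any pair of members was 5 for Mt1 and Mt2, 6 for Mt1 and Mt3, and 7 for Mt2 and Mt3. All 12 spots were well above background in both channels on all 4 arrays, and none was saturated.

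Mt2 was higher in FD brain than in control brain on both arrays. Its log2 ratio of treated over control was 0.66 on array 1 and 0.72 on array 2, a mean of 0.69 ± 0.04 (SD, 2 arrays) or 1.62-fold. A gene was called when the treated pool was at least 1.5-fold higher, or lower, on both arrays. In FD 16 of 17951 measured genes, 0.0891%, were called higher and 23, 0.128%, lower, and Mt2 was the only member called. With flagged spots kept, 0.0881% of 19297 genes were called higher and 0.13% lower, and Mt2 remained the only member called. Its mean ranked 12 among all measured genes. The normalised log2 intensity of Mt2 was 13.23 and 13.32 in the FD pool and 12.57 and 12.60 in its control on arrays 1 and 2. Both values of the FD pool lay above both of the control. For every member the gap between the pool intensities within an array is the log2 ratio of the same spots. The intensities are therefore no separate measurement.

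**Figure D1:**
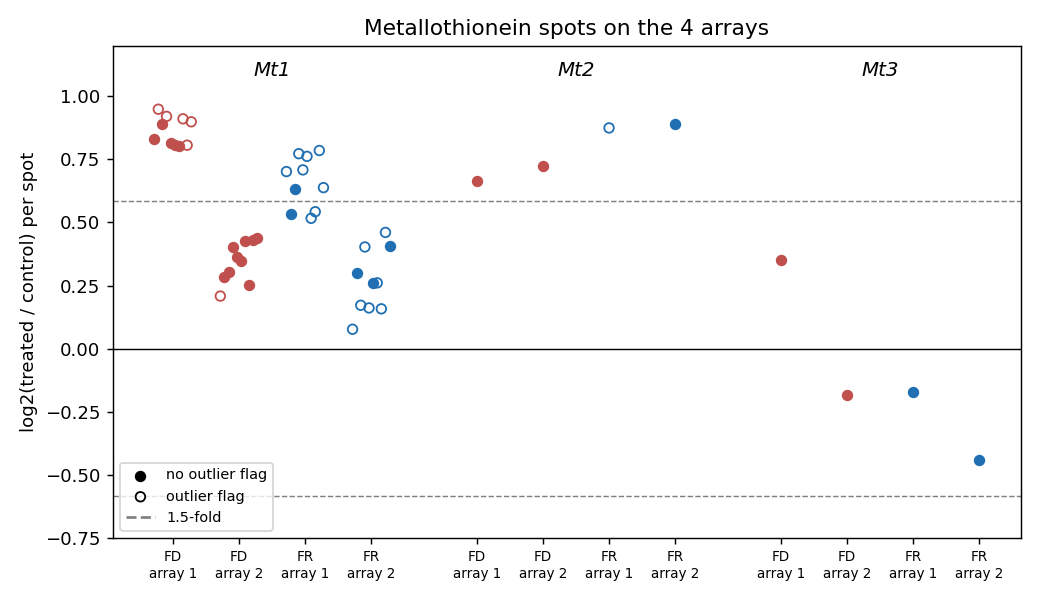
Log2 ratio of treated over control for each spot of the Mt1, Mt2 and Mt3 probes on the FD and FR arrays, with open symbols for spots that carry an outlier flag and dashed lines at 1.5-fold. All 10 Mt1 spots are above 0 on all 4 arrays, and those of array 1 lie above those of array 2.

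In FR, Mt2 read higher by at least as much, but 1 of its 2 spots carries a flag. The scanner software marked the Mt2 spot of array 1 as non-uniform in the green channel, and flagged spots were left out by rule, so that only array 2 gives an unflagged value, 0.89. With flagged spots kept, the log2 ratio was 0.87 on array 1 and 0.89 on array 2, a mean of 0.88 ± 0.01 (SD, 2 arrays) or 1.84-fold. Under that setting Mt2 was called higher, beside 117 of 20353 genes, 0.575%, called higher and 104, 0.511%, called lower, and its mean ranked 42. The normalised log2 intensity, flags kept, was 13.13 and 13.25 in the FR pool and 12.26 and 12.36 in its control on arrays 1 and 2. Here too both treated values lay above both control values.

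**Figure D2:**
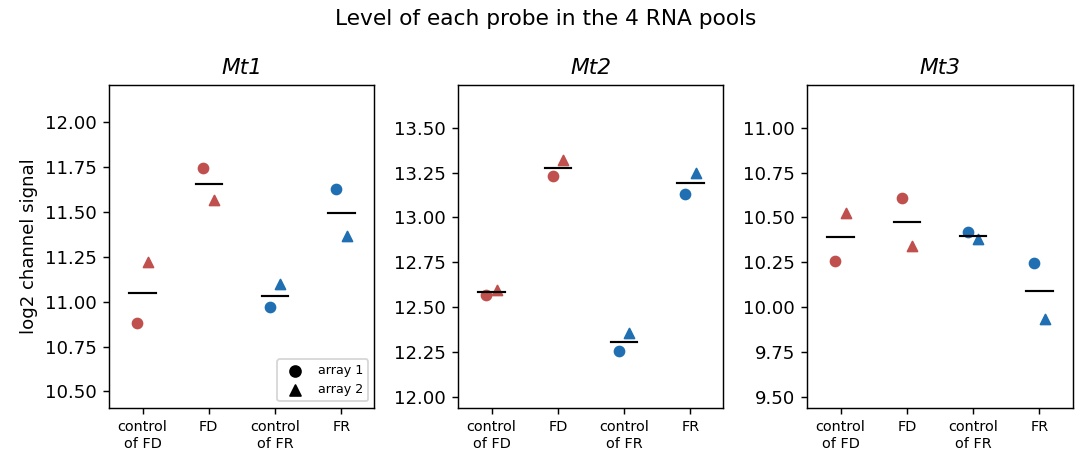
Normalised log2 channel intensity of Mt1, Mt2 and Mt3 in each pool, by array, with flagged spots kept and bars for the mean of the arrays. For Mt2 both treated pools lie above both controls on both arrays, while the Mt3 values of the FD pool and its control overlap.

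The size of the effect of that green non-uniformity flag could be read from probes printed 10 times, 245 in all, Mt1 among them. Among such probes with at least 2 spots flagged so and 2 free of any flag on FR array 1, the flagged spots read higher than unflagged ones in 28 of 28, by a median of 0.17. On FR array 2 they read lower in 35 of 36, by a median of -0.17. The shifts were 0.16 on FD array 1, positive in 36 of 36, and -0.21 on FD array 2, negative in 25 of 25. Apart from 1 probe on FR array 2, flagged spots thus read higher in Cy5 over Cy3 whichever pool was in Cy5. With the flagged Mt2 value of FR array 1 lowered by the median shift, it was 0.70, the mean was 0.80, and Mt2 was still called.

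**Figure D3:**
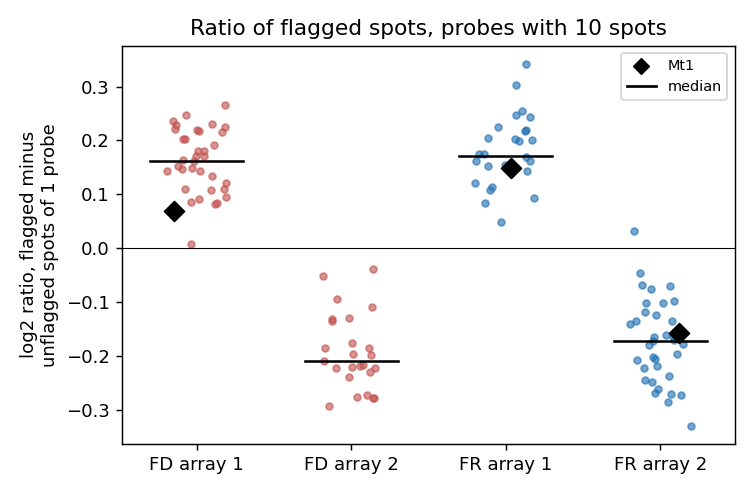
Difference in log2 ratio between spots flagged as non-uniform in green and spots with no flag, of the same probe, for probes printed 10 times, on each array. The shift is above 0 on both arrays 1 and below 0 on both arrays 2, with 1 exception among the probes of FR array 2.

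Mt1 was higher in the FD pool on both arrays and at every spot, by unequal amounts. Over all 10 spots the log2 ratio ran from 0.80 to 0.95 on array 1, with a median of 0.86, and from 0.21 to 0.44 on array 2, with a median of 0.35. The ranges of the arrays do not overlap, and array 1 read above array 2 at 10 of 10 printed positions. Over unflagged spots the means were 0.83 (5 spots) and 0.36 (9 spots), giving 0.60 ± 0.33 (SD, 2 arrays) or 1.51-fold. Mt1 was not called, because array 2 fell short of 1.5-fold, although its mean ranked 25 of 17951. A gap between arrays at least as large was seen in 6.90% of genes. With all spots kept, the mean of array 1 and array 2 taken position by position was 0.60 ± 0.04 (SD, 10 positions), from 0.52 to 0.67. That SD is the spread between repeat spots of 1 probe on the same arrays, and does not hold the gap between the arrays.

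In FR Mt1 was again above 0 at every spot. The 10 spots ran from 0.52 to 0.79 on array 1, with a median of 0.67, and from 0.08 to 0.46 on array 2, with a median of 0.26. Array 1 was above array 2 at 10 of 10 positions, as in FD. Only 2 spots on array 1 and 3 on array 2 were unflagged, with means of 0.58 and 0.32, which give 0.45 ± 0.19 (SD, 2 arrays) or 1.37-fold. Mt1 was not called in FR, where 108 of 18550 genes, 0.582%, were called higher and 80, 0.431%, lower. Its mean ranked 391. With normexp fitted on all spots of FR array 2, a bright patch included, the array 2 value was 0.04 and the mean 0.31. With all spots kept the mean position value was 0.46 ± 0.09 (SD, 10 positions), from 0.35 to 0.62.

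The normalised log2 intensity of Mt1 over unflagged spots was 11.72 and 11.61 in the FD pool, on arrays 1 and 2, and 10.89 and 11.25 in its control. In the FR pool it was 11.59 and 11.38, against 11.01 and 11.06 in its control. In both comparisons the lowest treated value lay above the highest control value, though these intensities hold the same ratios as above.

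Mt3, the brain-enriched member, did not share the direction of Mt1 and Mt2 in FR. In FD its log2 ratio was 0.35 on array 1 and -0.18 on array 2, a mean of 0.08 ± 0.38 (SD, 2 arrays), so that the dye orientations disagree in sign. The Mt3 intensities of the FD pool, 10.61 and 10.34, overlap those of its control, 10.26 and 10.53. In FR the log2 ratio was -0.17 and -0.44, a mean of -0.31 ± 0.19 or 1.24-fold lower, which was not called. Of all genes measured in FR, 5.62% had a mean as low. With normexp fitted on all spots the FR mean of Mt3 was -0.18, with -0.17 and -0.19 on the arrays. The intensities of 10.25 and 9.93 in the FR pool lay below both of its control, 10.42 and 10.38.

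Array 1 exceeded array 2 for Mt1 and Mt3 in both comparisons and not for Mt2. For Mt3 the difference was 0.54 in FD, as large in 4.20% of genes, and 0.27 in FR. The mean over exchanged dyes is therefore the value to read for these genes. With each array centred on its median and no intensity-dependent dye correction, the means kept their direction, but single arrays did not. Mt1 then read 1.66 and -0.30 in FD and 1.43 and -0.65 in FR, Mt2 read 1.66 and -0.04 in FD and, flags kept, 1.83 and -0.23 in FR, and Mt3 read 1.10 and -0.78 in FD and 0.58 and -1.30 in FR. No member was called under that centring. The scanner software's own ratio gave the same sign as the loess values for every member on every array.

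**Figure D4:**
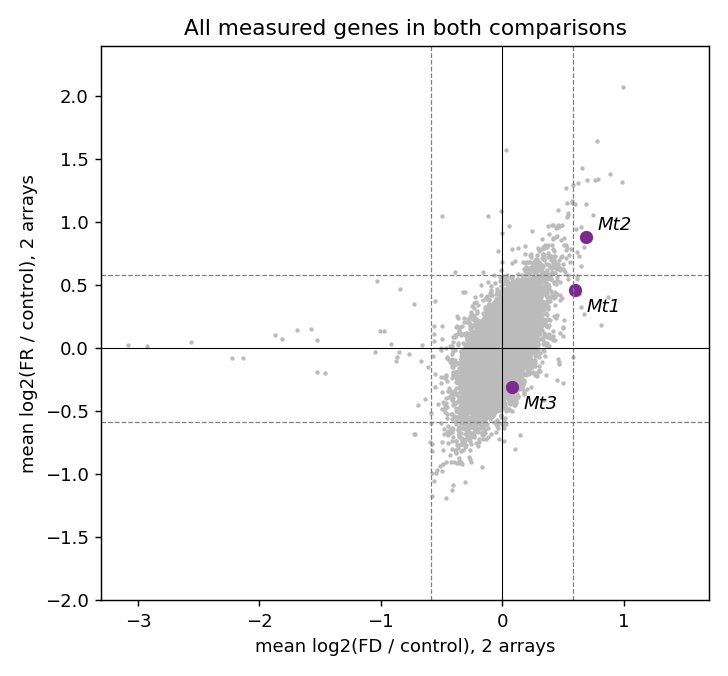
Mean log2 ratio over control in FR against that in FD for every gene measured in both, flagged spots kept, with Mt1, Mt2 and Mt3 marked and dashed lines at 1.5-fold. Each axis has its own control RNA. Mt2 lies past 1.5-fold on both axes, Mt1 on the FD axis, where its array 2 alone falls short, and Mt3 on neither.

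FD and FR were compared by subtracting FR from FD within each dye orientation, so that each difference also holds the difference between the control RNAs. Mt2 had an unflagged value on array 2 only. Neither Mt1 nor Mt3 was called. At 1.5-fold on both arrays, 12 of 16750 genes, 0.0716%, were called higher and 45, 0.269%, lower in FD. With flagged spots kept, none of the 3 members was called, beside 0.0736% of 19025 genes called higher and 0.242% lower. For Mt1 the difference of FD minus FR was 0.24 and 0.04, a mean of 0.14, and 0.28 with normexp fitted on all spots. For Mt2, flags kept, it was -0.21 and -0.17, a mean of -0.19. Mt3 had the widest difference of the members, 0.52 and 0.26 with a mean of 0.39, and 1.24% of genes had a mean as high. With normexp fitted on all spots, the Mt3 difference was 0.52 and 0.0044, a mean of 0.26. The Mt1 mean was then the wider. In intensity, the Mt3 difference between the treated pools was 0.36 and 0.41 and that between their controls -0.16 and 0.15. For Mt2, flags kept, the treated pools differed by 0.10 and 0.07 in intensity and the controls by 0.31 and 0.24. The array 1 values rest on the FR spot flagged in green, the channel of the control there. Mt2 has 1 spot per array, and a shift in the intensity of a whole spot moves both of its channels. How the difference between the Mt2 ratios divides between treated and control pools was therefore not tested. For Mt1 the treated pools differed by 0.13 and 0.23 and the controls by -0.12 and 0.19.

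Other probes described as metallothioneins were dimmer. Mt4, the epithelial member, had 1 measured probe, at 0.31 and -0.19 in FD and 0.08 and -0.05 in FR, and its other probe was not well above background on any array. A probe that the files describe as metallothionein 1 under a transcript identifier, and that the rule does not take, read 0.25 and -0.02 in FD and 0.24 and 0.01 in FR, at raw intensities of 68.4 to 150. The files place this probe at chr8:96703844-96703903 on build mm9, close to the Mt1 probe at chr8:96704011-96704070. Its means of 0.12 in FD and 0.13 in FR were below those of the Mt1 probe. A probe described as metallothionein 1K read 0.18 and 0.38 in FD and 0.44 and 0.45 in FR, at 119 to 560. It shares a run of 14 bases with the Mt2 probe. Neither of these probes was called.

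Among the regulators of the family, Mtf1, the zinc-sensing activator, read 0.28 and 0.43 in FD, a mean of 0.36, and -0.03 and 0.11 in FR. No gene of the list of regulators and co-regulators was called in either comparison, and the medians of its 7 measured genes were 0.01 and 0.06 in FD and FR. Sp1, a general promoter-binding factor, had a mean of -0.23 in FD and 0.06 in FR. The median of all measured genes was 0.00 and 0.01.

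Genes that move zinc were next. Slc30a1, the zinc exporter of the plasma membrane and another target of Mtf1, read 0.56 and 0.13 in FD and 0.33 and 0.06 in FR. Slc30a4, an exporter of vesicles, read 0.61 and 0.08 in FD and 0.58 and 0.10 in FR. Slc30a6, a transporter of the Golgi, read -0.09 and -0.46 in FD and -0.34 and -0.55 in FR. None of the 8 measured exporters was called, and 4 of 8 in FD and 3 of 8 in FR were positive on both arrays, against 25.5% and 28.3% of all genes. Their medians were 0.09 and 0.15. Of the Slc39 importers, 11 were measured in FD and 10 in FR, none was called, and the medians were 0.01 and -0.04. Slc39a10 had the widest values of the importers, -0.22 in FD and -0.36 in FR.

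Of the genes that handle copper, the other metal bound by metallothioneins in cells, none was called among 9 measured in FD and 11 in FR. Cox17, a copper chaperone of cytochrome oxidase assembly, had a mean of -0.35 in FR. In iron handling, 1 of 7 measured genes was called in FD, Tfrc, the transferrin receptor, at 0.64 and 0.66. In FR Tfrc read 0.45 and 0.41, and none of 9 was called. Other inducers of Mt1 and Mt2 have their own target genes. Of the glucocorticoid-responsive genes, none of 12 in FD and none of 11 in FR was called; the medians were 0.02 and 0.10. Pdk4, a brake on glucose oxidation, had means of 0.18 and 0.29, and Sgk1, a kinase, 0.22 and 0.24. Tsc22d3, a glucocorticoid-induced leucine zipper, had means of -0.16 and -0.27, but its arrays disagreed in sign. It read -0.37 and 0.06 in FD and -0.60 and 0.07 in FR. Among targets of the oxidative stress factor NRF2, none of 12 in FD and none of 9 in FR was called, with medians of 0.00 and -0.07. Nqo1, a quinone reductase, had means of 0.24 and 0.20, and Gclm, a subunit of the enzyme that starts glutathione synthesis, -0.21 in both. Of the acute phase and interleukin-6 list, none of 7 was called in either. Fgb, a fibrinogen chain, had means of 0.50 and 0.17, Cebpd, an inflammatory transcription factor, 0.23 and 0.29, and Socs3, a feedback inhibitor of cytokine signalling, 0.06 and 0.29. Il6st, the signalling subunit of the interleukin-6 receptor, had -0.16 and -0.30, and the transcription factor Stat3 -0.19 and 0.08. The medians of the acute phase list were -0.03 in FD and 0.13 in FR. In FR 5 of its 7 genes were positive and 1 negative on both arrays, against 28.3% and 27.4% of all genes. In FD 2 of 7 were positive and 3 negative, against 25.5% and 23.3%.

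**Figure D5:**
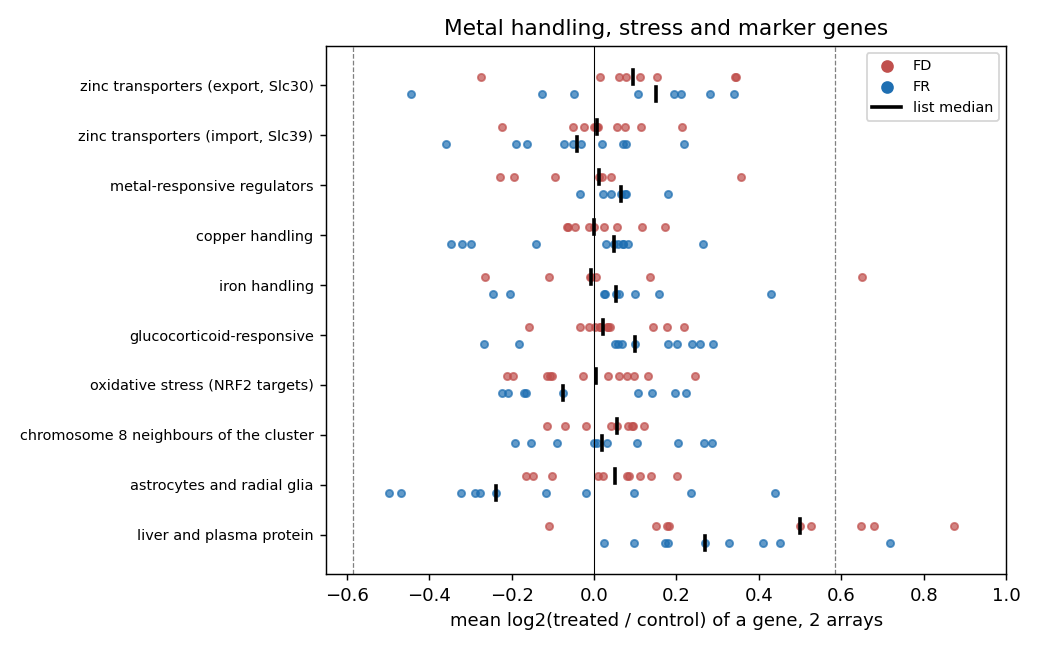
Mean log2 ratio over 2 arrays of each measured gene of 10 lists, in FD and FR, with black bars for list medians and dashed lines at 1.5-fold. In the metal handling, inducer and neighbour lists the gene past 1.5-fold is Tfrc in FD, while 3 liver and plasma protein genes in FD and 1 in FR lie past it.

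Genes beside the cluster on chromosome 8 were not called either, with 9 measured in FD and 10 in FR and medians of 0.06 and 0.02. Nup93, a nuclear pore subunit, read 0.12 and 0.13 in FD and 0.25 and 0.32 in FR. Bbs2, a subunit of the ciliary BBSome, had means of -0.11 and -0.19.

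By the distance between the 4 log2 ratios of a gene and those of a member, genes near to Mt1 among 16750 included Depp1 (0.30), Mzf1 (0.30), Slc25a16 (0.32) and Hoxb3 (0.32). The nearest to Mt3 were Fbxl2 (0.056), Necab1 (0.14), Napg (0.14), Car2 (0.15) and Avp (0.15). The nearest to Mt2, with flags kept and among 19025 genes, were Zfp672 (0.16), Igfbp1 (0.23), Tmem269 (0.31), Odf2 (0.36) and Usf2 (0.36). The 4 points of each pattern come in pairs of arrays of the same RNA, so these are descriptions.

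Markers of cells that brain tissue can hold or carry were read beside the members. Liver is rich in Mt1 and Mt2, and most of the liver and plasma protein transcripts listed had positive ratios in both comparisons, few of them called. Of its 12 genes, 9 were measured in each comparison. In FD 8 of 9 were positive on both arrays, against 25.5% of all genes, with a median of 0.50, and 2 were called higher: Ahsg at 0.84 and 0.91 and Serpina1d at 0.61 and 0.68. Alb had a mean of 0.68 and Afp of 0.53. The FD gene not positive on both arrays was Trf, transferrin, at -0.11. In FR 8 of 9 were positive on both arrays, against 28.3% of all genes, with a median of 0.27, and 1 was called, Afp, at 0.84 and 0.60. Over the settings tried the list median ran from 0.34 to 0.74 in FD and from 0.11 to 0.54 in FR. The mean log2 intensity of the list was 7.60 and 7.55 in the FD pool against 7.17 and 7.18 in its control, and 7.58 and 7.49 in the FR pool against 7.29 and 7.19. The part of these transcripts in the Mt1 and Mt2 values was not tested.

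Astrocytes and radial glia, which express Mt1, Mt2 and Mt3, had a marker median of 0.05 over 10 genes in FD and -0.24 over 11 genes in FR, with none called. In FR 3 of the 11 were positive and 5 negative on both arrays, S100b at -0.50 and Aqp4 at -0.47 being the lowest, and Aldoc, at 0.44, the highest. The mean intensity of the list was 8.43 on both arrays in the FR pool and 8.56 and 8.65 in its control, and Mt3 was lower in the same pool. The FR median ran from -0.33 to -0.07 over the settings tried. The part of these cells in the Mt3 value was not tested. Neuron markers had medians of -0.07 and 0.00, choroid plexus -0.02 and -0.01, endothelium -0.08 and -0.01, and microglia 0.02 and -0.02. Meningeal markers had medians of 0.01 and -0.01, with Col1a1 called lower in FD, at -0.83. The 2 measured red cell markers had medians of -0.31 and -0.11. Against the control of FD, which stood above the other 3 RNAs in these markers, 8 of 9 skeletal muscle markers were called lower in FD, with a median of -1.87, as were 3 of 5 brown fat markers, with a median of -0.98. In FR 3 of 6 neutrophil markers were called higher, with a median of 0.75, and 1 brown fat marker, Cidea, lower, at -0.68. The part of these transcripts in the members' values was not tested.

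Over the whole arrays, 73.5% to 84.2% of spots were well above background in the treated channel and 71.4% to 85.3% in the control channel. The technical error of a mean over exchanged dyes, from the spread between arrays over all measured genes, was 0.127 in FD and 0.132 in FR on the log2 scale. The Mt2 mean of 0.69 in FD, the Mt1 means of 0.60 and 0.45 and the Mt3 mean of -0.31 in FR are larger in size than that error. The Mt3 mean of 0.08 in FD is smaller. The Mt2 mean of 0.88 in FR is larger too, but was taken with flagged spots kept, while the error was taken with them left out. This error does not hold the spread between litters.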

How the data were processed

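RNA of fetal brain pools was measured on 2-colour Agilent arrays, 1 treated and 1 control pool per array, 2 arrays per comparison. The deposited scanner files hold mean spot intensity and median local background intensity per channel, from Agilent Feature Extraction 9.5.3.1 per the submitters' processing notes, and flags of 0 or 1 for outlier pixels, saturation and signal well above background, per the file headers. Per the file headers they also hold a log10 ratio, red channel over green, background-subtracted and dye-normalised by the scanner software before the authors deposited it. The authors' deposited value table has no stated unit. On spots well above background it equalled the scanner's ratio, expressed as log2 of treated over control, within 5.5e-06, so the deposited values are log2 ratios the authors took from that software without further centring. Its column medians were -0.03, 0.03, -0.03 and 0.01. Over all spots r was 0.840 to 0.927, and the making of its dim values is unknown. Direction was set from the dyes in the labels.

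Spots whose local background was over 2 times the array median, 3 on FD array 1, 42 on FR array 2 and 0 on the others, were left out. Intensities were then corrected with normexp (offset 50) and loess in limma 3.58.1 under R 4.3.3, with control spots at weight 0, and outlier-flagged spots were left out. Pool levels were taken after Aquantile. Spots of a probe were averaged, and the brightest measured probe (well above background in every channel of a comparison) stood for its gene. Genes were called at 1.5-fold in the same direction on both arrays. Simulated data of 43379 spots were run with these settings. In each comparison 100% of 100 spots changed by log2 1, and of 100 changed by log2 2, were recovered. Of the unchanged spots 0 were called. These values hold for the simulated spots only. Recovery of spots changed by less than log2 1, such as those near 1.5-fold, was not tested. Recovery and wrong calls on the measured arrays were not tested either.

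The members and all lists, and the exclusion by local background, were chosen with earlier results of these data known. The text names the members, Mt4, Mtf1, the 5 nearest genes per member (1 is not reported here), called list genes with up to 3 more per list, and up to 2 per marker list; Afp in FD, Serpina1d, Trf and Aldoc were added after their values were seen. Of 14 listed neighbours of the cluster, 13 lie on chromosome 8 in RefSeq. Alternatives tried were the background correction, centring, ratio source, flags, call size and single arrays.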

Additional observations from a re-analysis of the deposited data

How the results depend on the processing

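With each array centred on its median, the Mt2 mean was 0.81 in FD, the FR value of array 2 alone was -0.23 and the FR mean with flags kept was 0.80. FD minus FR was then 0.29 for Mt1, 0.30 with flags kept, and 0.19 for Mt2, 0.0096 with flags kept. For single arrays a value cannot move by more than the SD of the 2 arrays, so staying within it says nothing there. On array 2 alone, Mt1 in FD was 0.36 against a mean of 0.60, and Mt3 in FD was -0.18 against 0.08, a change of sign. Under the remaining settings tried, the members' values moved by less than the spread between arrays. For the single unflagged Mt2 value of FR that spread came from all measured genes, and its value with the scanner's ratio was 0.78. That spread is wide, and normexp fitted on all spots changed values by over 1.5 times within it: Mt3 in FR to -0.18 and FD minus FR of Mt1 to 0.28.

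Counts of called genes over all genes depended on the setting. In FD, 16 genes were called higher and 23 lower. This became 27 and 36 with a normexp offset of 16, 74 and 67 with the scanner's ratio or the authors' table, 0 and 12 at 2-fold, 38 to 80 and 63 to 107 on single arrays, and 2 higher with median centring. In FR, 108 and 80 became 9 and 4 with normexp fitted on all spots, 178 and 134 with offset 16, 31 and 6 with median centring, 318 and 287 with the scanner's ratio or the authors' table, 19 and 5 at 2-fold, and 276 to 317 and 240 to 303 on single arrays. In FD minus FR, 12 and 45 became 2 and 26 with normexp on all spots, 30 higher with offset 16, 31 higher with median centring, 136 and 124 with the scanner's ratio or the authors' table, 0 and 19 at 2-fold, and 45 to 50 and 88 to 140 on single arrays. Of the fixed list genes, the 1 called higher in FD became 2 with offset 16, the scanner's ratio, the authors' table or array 1 alone, and 0 with median centring. In FR the 0 called higher became 1 on array 2 alone, and the 0 called lower became 1 with the scanner's ratio, the authors' table or array 1 alone. The cause of these shifts was not tested.

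No paired analysis was possible because no test was made: the array number marks the dye orientation of the same pools. Of the gene list medians under these settings, 16 moved and 144 stayed within the spread between arrays. Of the marker list medians, rerun as an addition made after seeing the data, 57 moved and 119 stayed. All member spots were well above background, and the number of pools, 1 per condition, limits the precision.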
